A study of Mus musculus with 7 samples.

Results

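The 9 genes described here, Krt7, Krt19, Krt8, Krt18, Spp1, Cftr, Muc1, Epcam and Tspan8, are known from the epithelium of the pancreatic ducts. They were chosen by name, as the rows whose Ensembl identifier maps in GENCODE M21 to these symbols, and they are 9 of the 21899 genes listed in each file. Each was measured by RNA-seq of pancreatic islets, the endocrine part of the pancreas, in which β-cells make insulin. A mean of at least 10 counts over both libraries was reached by 8 of the 9, and Cftr was below it.

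The islets came from second-generation (F2) male mice, wild-type C57BL/6J by the study's methods. In the androgen-exposed lineage (AE-F2, labelled hyperandrogenism) the founder dam (F0) received dihydrotestosterone by subcutaneous injection in late gestation, and in the control lineage (Ctrl-F2, labelled control) it received the same solvent, benzyl benzoate in corn oil, alone. First-generation males of each lineage were mated with unrelated wild-type females, so that the F2 males themselves received neither agent. Islets were released by collagenase, enriched on a density gradient, picked by hand and cultured, and the age of the F2 males used for sequencing is not given in the sources used here. The labels name 3 Ctrl-F2 and 4 AE-F2 samples. Replicate 1 of Ctrl-F2 and replicate 4 of AE-F2 gave the values below, 1 library per group, and the other 5 were not analysed here. Whether a library holds the islets of 1 animal or of several is not stated.

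Duct cells line the channels that carry digestive enzymes from the acini to the gut, and they add a bicarbonate-rich fluid. Their cytoskeleton is built of keratin filaments, in which a type II keratin (Krt7, Krt8) pairs with a type I keratin (Krt18, Krt19). Their apical face carries the mucin Muc1 and the chloride channel Cftr, their lateral face the adhesion molecule Epcam, and they secrete osteopontin, the product of Spp1. Of these genes Krt8, Krt18 and Epcam are known to be used by many simple epithelia, islet endocrine cells among them, whereas Krt19 and Cftr are the classical duct markers. Osteopontin is also a product of macrophages.

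The promoters of the keratin genes and of Muc1 are shown because the keratins held most of the counts of the 9 genes and the Krt8 and Krt18 messages differed little between the libraries, while Muc1 was one of the members with a large ratio. Each is the 250 bases before the transcription start in RefSeq on GRCm38.p6, on the strand of the gene, at chr15:101412153-101412402 (plus strand) for Krt7, chr15:102004343-102004592 (minus strand) for Krt8, chr15:102027966-102028215 (plus strand) for Krt18 and chr3:89228806-89229055 (plus strand) for Muc1. Capitals mark the letters TATAAA (core of the TATA box), the letters GGGCGG (core of the GC box) and the letters CCAAT on either strand.
Krt7: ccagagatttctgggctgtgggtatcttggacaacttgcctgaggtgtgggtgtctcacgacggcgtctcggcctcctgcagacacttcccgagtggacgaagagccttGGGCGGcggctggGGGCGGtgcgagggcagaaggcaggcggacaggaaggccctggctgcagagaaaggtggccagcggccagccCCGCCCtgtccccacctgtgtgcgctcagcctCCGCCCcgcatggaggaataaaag
Krt8: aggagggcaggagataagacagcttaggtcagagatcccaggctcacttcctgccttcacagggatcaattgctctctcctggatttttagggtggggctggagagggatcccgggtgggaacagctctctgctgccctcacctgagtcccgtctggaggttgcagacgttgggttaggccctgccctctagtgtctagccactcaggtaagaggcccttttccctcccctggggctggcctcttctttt
Krt18: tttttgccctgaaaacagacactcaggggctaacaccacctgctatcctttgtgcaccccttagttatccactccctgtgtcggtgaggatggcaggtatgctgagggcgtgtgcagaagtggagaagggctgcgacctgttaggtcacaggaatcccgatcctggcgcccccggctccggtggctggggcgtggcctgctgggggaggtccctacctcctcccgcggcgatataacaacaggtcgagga
Muc1: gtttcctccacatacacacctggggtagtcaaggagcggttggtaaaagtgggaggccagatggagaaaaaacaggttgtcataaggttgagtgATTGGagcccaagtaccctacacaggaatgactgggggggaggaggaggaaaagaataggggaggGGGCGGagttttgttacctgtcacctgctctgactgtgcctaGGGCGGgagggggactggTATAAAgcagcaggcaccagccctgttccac

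RefSeq promoters were matched for 8 of the 9 genes, in 9 entries since Spp1 has 2, and Krt19 was not matched. The letters TATAAA stood in 12.4% of all 32851 promoters of this length and in those of 2 members. In Muc1 they lay at positions -31 to -26 from the start, and in Spp1 farther out, at -211 to -206 of 1 of its entries. The letters GGGCGG stood in 32.7% of all promoters and in 4 members, Cftr with 6 copies of which some overlap, Krt7 with 4, Muc1 with 2 and Epcam with 1. The letters CCAAT stood in 33.8% of all promoters and in 2 members, Muc1 and Spp1. None of these letters was found in the window of Krt8, Krt18 or Tspan8. The Krt7 promoter was 66.0% G or C, against 58.0% for Krt8, 60.4% for Krt18, 54.8% for Muc1 and a median of 52.4% over all promoters. Krt8 and Krt18 lie head to head on chromosome 15, their starts 23.9 kb apart, with 2 predicted genes between them in RefSeq. No value measured here bears on whether any of these motifs is used.

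The library totals were 16285876 counts for Ctrl-F2 and 21278503 for AE-F2, so that AE-F2 was sequenced 1.31 times as deep. Levels are given as counts-per-million values (CPM) of the library total, and the detection floor of 3 counts stood at 0.184 CPM in the first and at 0.141 CPM in the second. With 1 library per group there is no replicate check on any difference, and no p-value is given. The 95% intervals cover counting error only, and since PCR copies are not independent molecules they understate the error. In bulk islets, a change in the number of duct cells and a change in RNA per duct cell cannot be told apart. A log2 ratio is of AE-F2 over Ctrl-F2, after TMM scaling and the addition of 0.5 counts.

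The 9 genes together held 11200 counts in Ctrl-F2 and 15483 in AE-F2, or 688 and 728 CPM. Their summed log2 ratio was 0.09 (0.05 to 0.12), a level 1.06 times as high in the AE-F2 library, and it was -0.0105 without Krt7, the member with the most counts. The 8 genes that reached the minimum had a median log2 ratio of 0.08, against 0.00 for all 13627 genes that reached it, and of -0.0542 after removal of GC content and length trends. Krt19 and Muc1 were past 2-fold higher, 2 of 8 where 3.16% of all genes were. None of the 8 was past 2-fold lower, where 0.653% of all genes were. The counting interval lay above equality for Krt7, Krt19 and Muc1 and below it for Krt8, where 13.4% of all genes were above and 13.4% below. For Krt18, Spp1, Epcam and Tspan8 it included equality. A scarce gene can reach the minimum through the library in which it is high, so these counts are not support for a difference, and Cftr, at 5 counts in each library, is not among them.

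**Figure D1:**
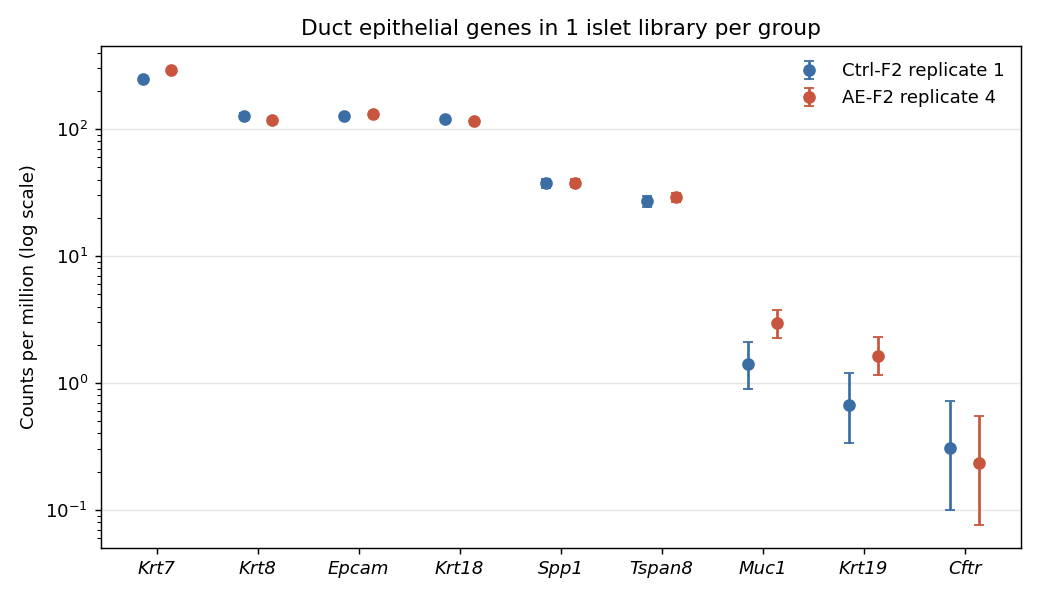
CPM of each of the 9 genes (vertical axis, log scale) in the Ctrl-F2 library (blue) and the AE-F2 library (red). Bars are 95% exact binomial intervals for counting error. Krt7 is at 247 and 291 CPM, Krt8, Epcam and Krt18 lie close together between 116 and 131 CPM, Spp1 and Tspan8 are lower, and Muc1, Krt19 and Cftr are all under 3 CPM.

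Compared per length, as counts per kilobase of merged exons scaled to a common library sum in the way of TPM, the genes fell into an abundant and a scarce set. Krt18 led with 199.9 such units in Ctrl-F2 and 189 in AE-F2. It was followed by Krt8 with 156 and 140, Epcam with 138 and 139, and Krt7 with 83.9 and 96.3. Spp1 stood at 54.3 and 52.9 and Tspan8 at 38.0 and 39.6. The scarce set began with Muc1 at 1.44 and 2.94, then Krt19 at 0.873 and 2.07, and ended with Cftr at 0.0948 and 0.0705. By merged exon length the order was the same in both libraries, and Krt8 and Epcam were neighbours that hardly differed in the AE-F2 library. By the length of the longest protein-coding transcript it was not. Ctrl-F2 then ran Krt18, Krt8, Epcam and Krt7, at 155, 121, 115 and 112, and AE-F2 ran Krt18, Krt7, Epcam and Krt8, at 147, 129, 116 and 109. The spread of these levels between animals cannot be read from 1 library per group.

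The level of Krt18 per length was above that of 98.6% of the listed genes in Ctrl-F2 and of 98.5% in AE-F2. That of Krt19, its type I relative, was above 43.6% and 48.4%. For Cftr these shares were 32.9% and 29.6%. The label of a duct gene set was therefore only partly borne out by these islets. The classical duct markers Krt19 and Cftr were scarce, and Krt8, Krt18 and Epcam, shared with other epithelia, were abundant. Krt7, typical of ductal and glandular epithelia, was abundant too, above 95.8% of the listed genes in Ctrl-F2 and 96.5% in AE-F2. Sctr, the secretin receptor of duct cells, had 0 counts in Ctrl-F2 and 1 in AE-F2. Car2, the carbonic anhydrase of bicarbonate secretion, had 1 and 7, and Sox9, the transcription factor that marks ducts, had 25 and 27. The abundant members are therefore named below by gene and not as a measure of duct cells.

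Krt7 (ENSMUSG00000023039), the type II keratin typical of ductal and glandular epithelia, had 4020 counts in Ctrl-F2 and 6195 in AE-F2. This was 247 CPM (239 to 255) against 291 CPM (284 to 298), a log2 ratio of 0.24 (0.18 to 0.30), or 1.18-fold. The AE-F2 library was the higher, and the intervals of the CPM values did not overlap. Of the 3471 genes whose mean reached 1000 counts, 1.99% had a higher log2 ratio, and the middle 90% of them, the 5th to the 95th percentile, ran from -0.23 to 0.17. In this class of well-counted genes a counting interval above equality was held by 16.3% and one below by 24.9%. The Krt7 log2 ratio stayed between 0.24 and 0.29 under every alternative tried.

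Krt8 (ENSMUSG00000049382), the type II keratin of simple epithelia, had 2080 counts in Ctrl-F2 and 2509 in AE-F2. Its level was 128 CPM (122 to 133) against 118 CPM (113 to 123), a log2 ratio of -0.11 (-0.20 to -0.03). It was the member with an interval below equality, by a small amount, and 19.9% of the well-counted genes had a lower log2 ratio. Krt18 (ENSMUSG00000023043), its type I partner, had 1952 and 2474 counts, 119.9 and 116 CPM, and a log2 ratio of -0.04 (-0.13 to 0.05). After removal of GC content and length trends, the log2 ratio of Krt18 was -0.16. The pair kept its proportion within counting error. Per length the Krt8 level was 0.782 of that of Krt18 in Ctrl-F2 and 0.744 in AE-F2, and the second ratio over the first was 0.952 (0.876 to 1.03).

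Krt7 stood apart from that pair. The Krt7 level per length was 0.537 of that of Krt8 in Ctrl-F2 and 0.686 in AE-F2, which is 1.28 times as high (1.19 to 1.37). Against Krt18 the Krt7 level was 1.22 times as high (1.13 to 1.31). Krt7 took 35.9% (35.0 to 36.8, 95% Wilson interval) of the counts of the 9 genes in Ctrl-F2 and 40.0% (39.2 to 40.8) in AE-F2. The share of Krt8 was 18.6% (17.9 to 19.3) and 16.2% (15.6 to 16.8). By counts, Krt7 and Krt8 over Krt18 and Krt19 were 1.12 times as high in AE-F2 (1.04 to 1.19). Summed counts weigh Krt7, with 7049 bases of merged exons against 1958 for Krt8, more heavily than levels per length do. Per length this ratio of type II to type I keratins went from 1.20 to 1.24, a smaller change for which no interval was computed.

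**Figure D2:**
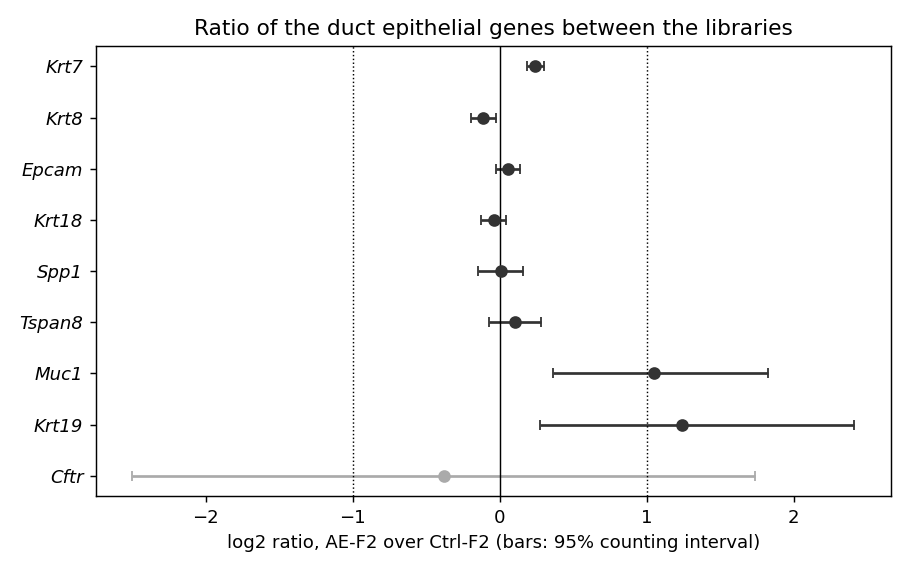
log2 ratio of AE-F2 over Ctrl-F2 (horizontal axis) for each of the 9 genes, with 95% counting intervals as bars and dotted lines at 2-fold. Krt7 lies at 0.24 with a narrow bar, 5 genes lie between -0.11 and 0.10, Muc1 and Krt19 lie just past 2-fold with wide bars, and Cftr, drawn in grey since it was under the minimum count, has a bar from -2.50 to 1.74.

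Krt19 (ENSMUSG00000020911), the type I keratin most used as a duct marker, had 11 counts in Ctrl-F2 and 35 in AE-F2. Its level was 0.675 CPM (0.337 to 1.21) against 1.64 CPM (1.15 to 2.29). The AE-F2 library was the higher, with a log2 ratio of 1.24 (0.28 to 2.41) or 2.37-fold (1.21 to 5.33), and the CPM intervals overlapped slightly. Relative to Krt7 the Krt19 level was 2.06 times as high (1.05 to 4.07), and relative to Krt18 it was 2.51 times as high (1.27 to 4.96).

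Muc1 (ENSMUSG00000042784), the transmembrane mucin of the apical face, had 23 counts in Ctrl-F2 and 63 in AE-F2. Its level was 1.41 CPM (0.895 to 2.12) against 2.96 CPM (2.28 to 3.79), a log2 ratio of 1.05 (0.36 to 1.83) or 2.07-fold (1.29 to 3.55). The AE-F2 library was the higher and the CPM intervals did not overlap. The Muc1 level was 2.02 times as high relative to Epcam (1.25 to 3.27), while relative to Krt19 it was 0.861 times as high (0.376 to 1.97), an interval that includes equality.

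Krt19 and Muc1 belong to a thinly counted class in which large ratios were common. Of the 3087 genes with a mean of 10 to under 100 counts, 13.0% were past 2-fold higher and 17.5% had a counting interval above equality. The median log2 ratio of this class was 0.15, and its middle 90% ran from -0.71 to 1.98, which holds both genes. In that class 9.49% of genes had a higher log2 ratio than Krt19 and 12.1% a higher one than Muc1. With a pseudocount of 5 counts neither was past 2-fold, at a log2 ratio of 0.94 for Krt19 and 0.90 for Muc1.

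Cftr (ENSMUSG00000041301), the chloride channel of the duct cell apical face, had 5 counts in each library, 0.307 CPM (0.0997 to 0.716) in Ctrl-F2 and 0.235 CPM (0.0763 to 0.548) in AE-F2. Its log2 interval ran from -2.50 to 1.74, so that a difference of 2-fold in either direction was not detectable at this depth. Krt19, Muc1 and Cftr together had 39 counts in Ctrl-F2 and 103 in AE-F2, or 2.39 and 4.84 CPM.

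**Figure D3:**
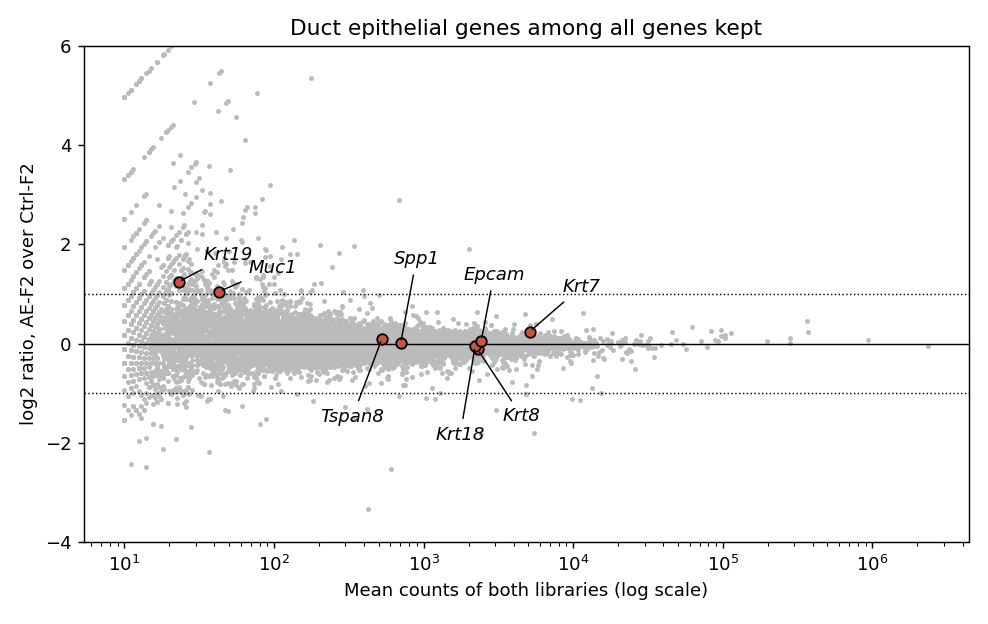
log2 ratio of AE-F2 over Ctrl-F2 (vertical axis) against the mean counts of both libraries (horizontal axis, log scale) for the 13627 genes that reached the minimum (grey) and the 8 duct epithelial genes among them (red), with dotted lines at 2-fold and 22 genes outside the plotted range. Krt7 lies at the upper edge of the genes of its level, whereas Krt19 and Muc1 lie inside the wide scatter of thinly counted genes.

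Epcam (ENSMUSG00000045394), the adhesion molecule of epithelial cells, had 2062 counts in Ctrl-F2 and 2791 in AE-F2. Its level was 127 CPM (121 to 132) against 131 CPM (126 to 136), a log2 ratio of 0.05 (-0.03 to 0.14). Tspan8 (ENSMUSG00000034127), a tetraspanin of epithelial membranes, had 439 and 615 counts, 27.0 and 28.9 CPM, and a log2 ratio of 0.10 (-0.07 to 0.28). Both intervals included equality, and both bounds lie far inside 2-fold. Of the well-counted genes 26.2% had a higher log2 ratio than Epcam. Of the 7069 genes with a mean of 100 to under 1000 counts, with a median log2 ratio of -0.01 and a middle 90% from -0.31 to 0.33, 25.5% had a higher one than Tspan8.

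Spp1 (ENSMUSG00000029304), which encodes the secreted phosphoprotein osteopontin, had 608 counts in Ctrl-F2 and 796 in AE-F2. The level was 37.3 CPM (34.4 to 40.4) against 37.4 CPM (34.9 to 40.1), a log2 ratio of 0.01 (-0.15 to 0.16). Among genes of its level 46.6% had a higher log2 ratio, which places it near the middle. All 12 macrophage markers, chosen because macrophages also make osteopontin, had counts in both libraries. They summed to 78.4 CPM in Ctrl-F2 and 74.7 CPM in AE-F2, and none of the 11 that reached the minimum was past 2-fold. Their median log2 ratio was 0.11, and without C1qa, the most abundant, they summed to 42.1 and 44.3 CPM, so that no direction held for the list. Which cells gave the Spp1 counts was not tested. After removal of the trends of the log2 ratio with GC content and length, Spp1 stood at -0.19, Epcam at -0.03 and Tspan8 at -0.08, so that their direction turned.

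Osteopontin binds integrins and CD44. Of the 9 receptor genes listed, 8 reached the minimum, with a median log2 ratio of 0.10 and none past 2-fold. The most abundant were Itgb1, the common β subunit, at 220.3 and 242 CPM (log2 ratio 0.14, 0.08 to 0.20), Itgav at 145 and 140.1 CPM (-0.04, -0.12 to 0.03) and Itgb5 at 66.7 and 60.2 CPM (-0.15, -0.26 to -0.03). A counting interval above equality was held by 3 of the 8 and one below by 1, where 13.4% of all genes were below and 13.4% above.

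Other genes of the duct programme were taken from 8 lists by role, with 77 symbols of which 75 were listed in the files and 56 reached the minimum. Their median log2 ratio was -0.02, with 24 higher and 32 lower in the AE-F2 library. Past 2-fold higher were 3 of the 56, Aqp1, Lcn2 and Dmbt1, and none was past 2-fold lower, where 3.16% and 0.653% of all genes were. Aqp1 and Lcn2 are in the thinly counted class, of which 13.0% were past 2-fold higher. A counting interval above equality was held by 11 and one below by 10, which as shares of 56, 19.6% and 17.9%, are set beside the 13.4% and 13.4% of all genes.

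The transcription factors of the duct, 8 of 9 at the minimum, had a median log2 ratio of -0.10. The most abundant were Glis3 at 149 and 139.8 CPM and Foxa2 at 105 and 96.8 CPM, both also used by β-cells. None was past 2-fold. The partners of the keratin filament, which anchor it to desmosomes and other filaments, had a median of -0.14 over the 6 of 8 at the minimum. Dsp (desmoplakin) stood at 153 and 141 CPM, Jup (plakoglobin) at 102 and 108 CPM and Plec (plectin) at 70.0 and 60.9 CPM. Of these 6, 3 had an interval below equality and none one above, where 13.4% of all genes were below and 13.4% above, and the median was -0.0062 after removal of GC content and length trends.

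Junction genes, which stand beside Epcam at the lateral membrane, had a median of -0.02 over 9 of 11. Cdh1 (E-cadherin) was at 414 and 408 CPM, Tjp1 at 200.4 and 183 CPM and Esrp1, a splicing regulator of epithelia, at 137 and 135 CPM. Cilium and polycystin genes had a median of -0.02 over all 6, with Pkd1 at 244 and 222 CPM, Pkd2 at 72.4 and 72.9 CPM and Ift88 at 42.4 and 45.3 CPM. None of either list was past 2-fold.

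The apical glycoproteins and tetraspanins, the list of Muc1 and Tspan8 relatives, had a median of 0.15 over 5 of 9. Prom1 went from 90.6 to 108 CPM (log2 ratio 0.26, 0.16 to 0.35), Cd24a from 63.9 to 70.6 CPM (0.15, 0.03 to 0.26) and Cd9 from 14.6 to 23.5 CPM (0.69, 0.47 to 0.92). These 3 of the 5, or 60%, had intervals above equality, where 13.4% of all genes had, and none of the 5 was past 2-fold.

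The transport genes that work beside Cftr had a median of -0.05 over 8 of 13. Slc4a2, an anion exchanger, was at 65.1 and 55.6 CPM, Slc12a2 at 32.4 and 31.2 CPM and Slc9a3r1, the scaffold that binds the tail of CFTR, at 20.2 and 19.6 CPM. Aqp1, a water channel of ducts that capillary endothelium also carries, had 43 counts in Ctrl-F2 and 125 in AE-F2, a log2 ratio of 1.15 (0.65 to 1.69). It was the only one of the 8 past 2-fold.

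The secreted proteins, the list to which Spp1 is closest, had the highest median of the 8 lists, 0.23 over 6 of 10. Clu (clusterin) went from 153 to 178 CPM (log2 ratio 0.22, 0.15 to 0.30). Dmbt1, a secreted scavenger protein of mucosal surfaces, had 680 counts in Ctrl-F2 and 3336 in AE-F2, 41.8 against 157 CPM, a log2 ratio of 1.91 (1.79 to 2.03). Lcn2 (lipocalin), an acute-phase protein, had 6 and 27 counts (1.70, 0.48 to 3.35). Below the minimum count, Wfdc2 had 0 and 11 counts, at least 2.81-fold higher against the floor of 3 counts per library and with a lower counting bound of 1.93-fold, and Mmp7 had 1 and 14 (7.42-fold, 1.63 to 454). These last 2 were chosen after their values were seen.

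**Figure D4:**
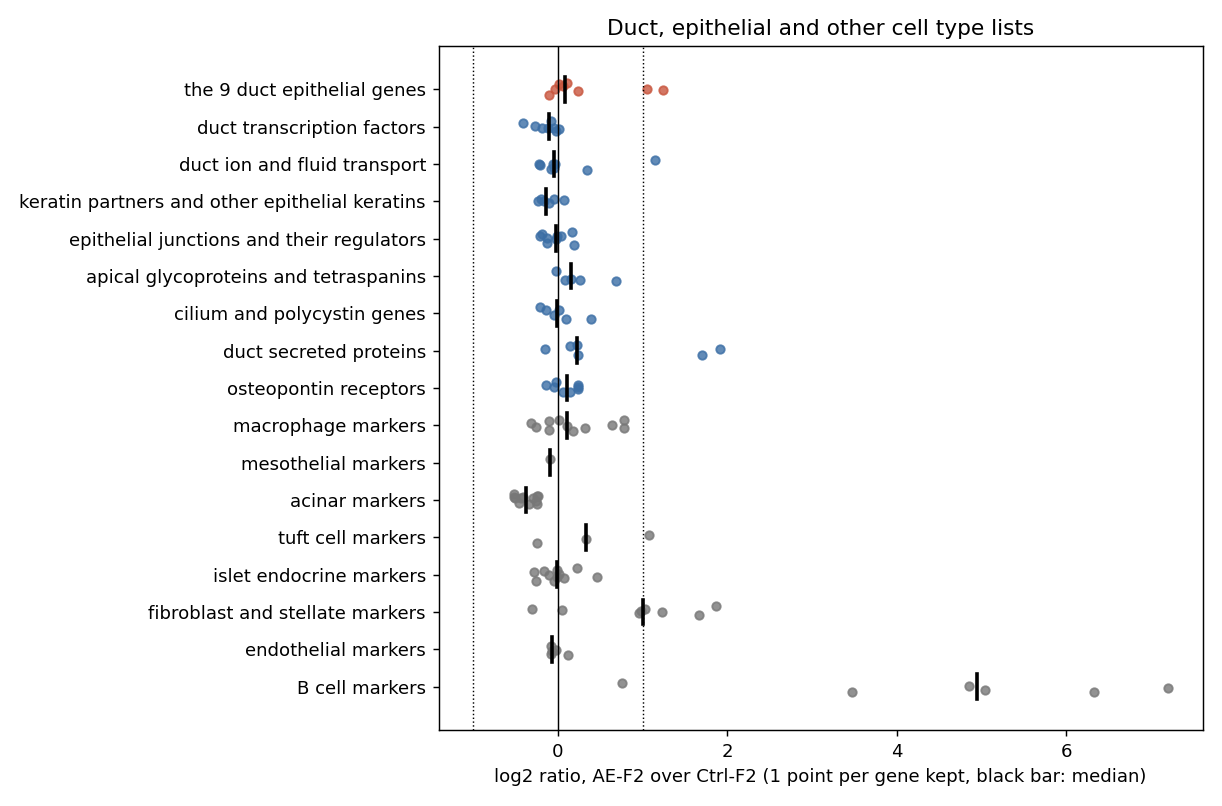
log2 ratio of AE-F2 over Ctrl-F2 (horizontal axis), 1 point for each gene that reached the minimum, for 8 of the 9 duct epithelial genes (red), the 8 lists of other duct genes (blue) and 8 lists of other cell types (grey), with black bars at the medians and dotted lines at 2-fold. The medians of the duct lists lie between -0.14 and 0.23, those of the acinar and B cell markers at -0.38 and 4.95.

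Markers of other cell types were read in the same 2 libraries because collagenase-isolated islets carry exocrine tissue, stroma and blood cells. All 12 acinar markers that reached the minimum, of 14, were lower in the AE-F2 library, with a median log2 ratio of -0.38 and a sum of 2310 against 1730 CPM. The 8 fibroblast and stellate markers had a median of 1.01, with 4 past 2-fold higher (Col1a1, Dcn, Lum and Pdgfra), where 3.16% of all genes were, and a sum of 82.0 against 128 CPM. Of the same list Acta2 had a log2 ratio of -0.31 (-0.60 to -0.02) and Pdgfrb of 0.05 (-0.13 to 0.24). The 6 B cell markers had a median of 4.95, with 5 past 2-fold, Ighm and Igkc among them, and a sum of 15.1 against 370 CPM. Krt19 and Muc1 were higher in the same library as these markers, and the part of stroma or B cells in their ratios was not tested.

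Of the mesothelial markers, read because mesothelium also makes Krt19 and Muc1, 5 of 7 were at 0 counts in Ctrl-F2 and 4 of 7 in AE-F2. Msln held 971 of their 972 counts in the first and 1186 of 1191 in the second. Of the 4 tuft cell markers Pou2f3, which defines the cell, had 0 and 2 counts, and Avil had 19 and 53, a log2 ratio of 1.07 (0.32 to 1.94), while the median of the 3 at the minimum was 0.33 and their list summed to 149 against 129 CPM, of which Trpm5, also made by β-cells, held 139.8 and 117. The 11 endocrine markers, all at the minimum, had a median of -0.02 and took 233381 and 239533 CPM. Their median was -0.21 after removal of GC content and length trends. The 5 endothelial markers had a median of -0.07 and summed to 551 and 546 CPM.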

How the data were processed

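RNA-seq libraries of islets from Ctrl-F2 and AE-F2 males were analysed, 1 library per group. Per the study's methods, poly(A) RNA was captured on oligo(dT) beads and reads were aligned with HISAT2, while the submitters' processing notes list Bowtie2, RSEM and DESeq2 without roles. The genome build, the annotation, the strand setting and the treatment of duplicate reads are not given in the sources used here. The authors deposited a file of unscaled estimated counts for each library. Of these values 8.56% (Ctrl-F2) and 9.28% (AE-F2) were not whole numbers, as estimated counts are where reads are divided between similar genes, and all 18 values of the 9 genes were whole. Symbols came from GENCODE M21 and matched 21806 of 21899 identifiers.

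Counts were rounded, and TMM factors were computed in edgeR 4.0.16 (R 4.3.3). The 13627 genes whose mean reached 10 counts were compared. The log2 ratio was computed with 0.5 counts added, and its 95% interval by converting the Clopper-Pearson bounds (scipy 1.17.1) of the share that AE-F2 held of the counts of a gene. Intervals of the ratio between 2 genes come from the 4 counts on a log scale. A gene was called past 2-fold by its log2 ratio. CPM use the library total, and levels per length use the merged exons of GENCODE M21. There was no model fit and no p-value. The steps were tested on simulated data.

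The 9 genes and all lists were chosen with earlier results of these data known. Genes named were the 9, up to 3 of each duct list with the highest mean CPM, and those past 2-fold with at least 10 counts on average; any other is said to be chosen after its values were seen or serves to check the cell type. Muc4 and Muc6 of the lists were not used here, and single values of some named genes are not reported here. The alternatives were DESeq2 1.42.0 size factors, other scalings, minimum counts, pseudocounts and folds, removal of GC content and length trends, thinning of the deeper library, another gene length, and leaving out the most abundant member.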

Additional observations from a re-analysis of the deposited data

How the results depend on the processing

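Leaving out a replicate was not possible with 1 library per group. No paired analysis was possible because the libraries used share no replicate number. Under all alternatives that kept them, Krt7, Krt19 and Muc1 remained higher in the AE-F2 library and Krt8 and Krt18 lower, with log2 ratios of 0.24 to 0.29 for Krt7, 0.94 to 1.26 for Krt19, 0.90 to 1.08 for Muc1, -0.14 to -0.09 for Krt8 and -0.16 to -0.02 for Krt18. Of 70 values of single genes 66 moved by less than their counting interval. The other 4 came with the removal of GC content and length trends, which put Krt18 at -0.16, Spp1 at -0.19, Epcam at -0.03 and Tspan8 at -0.08, the median of the 8 genes at -0.0542 and the counting interval of 3 of them below equality. Without Krt7 the summed log2 ratio of the members turned to -0.0105. A minimum mean of 50 counts, which leaves out Krt19 and Muc1, left 0 members past 2-fold higher and 1 with an interval above equality, and over all genes 85 higher and 21 lower. A pseudocount of 5 counts also left 0 members past 2-fold higher. Over all genes a minimum mean of 1 count gave 1198 past 2-fold higher and 445 lower, and a 1.5-fold threshold gave 823 and 299, against 430 and 89. Of 144 medians of the other lists 4 moved, those of the mesothelial and tuft cell markers to 1.35 and 0.70 with a minimum mean of 1 count, and those of the acinar and endocrine markers to -0.53 and -0.21 with the trends removed. Between the scalings, the log2 scaling of AE-F2 over Ctrl-F2 shifted by -0.016 to 0.0039. All log2 ratios shifted by the same amounts in the opposite direction.

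Animal-to-animal spread is unknown here, so no difference described above is shown to belong to a group. Depth limits Cftr, Krt19 and Muc1, with means of 5, 23 and 43 counts. How the authors' counting treated reads shared by related keratin genes is not stated.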

Other observations

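The families of 3 members were read after their values were seen, by the symbols of the files. Of 49 keratin genes listed, 35 had 0 counts in Ctrl-F2 and 34 in AE-F2, and 8 reached the minimum mean of 10 counts. Besides the members these were Krt222 with 172 and 273 counts, Krt80 with 151 and 228, Krt10 with 56 and 78 and Krt1 with 50 and 41. The log2 ratio of Krt222 was 0.28 and that of Krt80 0.21, close to the 0.24 of Krt7, and that of Krt1 was -0.67. Krt7, Krt8, Krt18 and Krt19 thus held most keratin counts, of which there were 8507 in Ctrl-F2 and 11861 in AE-F2.

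Of 20 tetraspanin genes 16 reached the minimum, with a median log2 ratio of 0.02, and none was past 2-fold, Tspan8 with 0.10 included. Of 22 claudin genes, which seal the junctions between epithelial cells, 9 reached the minimum, with a median of -0.09. Cldn2, the pore-forming claudin of leaky epithelia, had 21 counts in Ctrl-F2 and 62 in AE-F2, a log2 ratio of 1.16 (0.45 to 1.97), in the same thinly counted class as Krt19 and Muc1. The other 8 claudins at the minimum were within 2-fold.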
